A study of Homo sapiens with 15 samples.

Results

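The cleavage-stage embryo gene families are named for genes that the human embryo switches on when its own genome first becomes active. They were taken by name from the expression table: every gene whose name starts with PRAMEF, TRIM43, TRIM48, TRIM49, TRIM51, TRIM53, TRIM64, MBD3L, KHDC1, RFPL or DUXA, together with ZSCAN4, LEUTX and CCNA1. This gave 55 of the 26441 gene names with values. A choice by name can also take in relatives that are not such genes, and RFPL2, KHDC1 and DUXAP8 had values in every library. Of the 55, 20 were PRAMEF genes, 14 TRIM genes, 8 RFPL genes, 5 MBD3L genes, 3 DUXA genes or pseudogenes and 2 KHDC1 genes. The families were proposed because members were known to lie high under the PALI1 hairpin in these same libraries, so the members' values in every comparison with shPALI1 are a description. No p is given for them, and counts of calls there were set by the choice of members.

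RNA had been sequenced from LNCaP, an established human line of prostate cancer, kept in serum-containing RPMI and infected with lentivirus for 4 to 5 days. There were 5 groups of 3 libraries, all of the labelled genotype WT: shPALI1, shG9a, shJarid2 and shsuz12, which carried a hairpin RNA against PALI1, G9a (gene EHMT2), JARID2 or SUZ12, and the vector control pLKO. PALI1 is made from the joined LCOR and C10orf12 genes and, like JARID2, is an accessory protein of Polycomb repressive complex 2, of which SUZ12 is a core subunit. G9a is a histone H3 lysine 9 methyltransferase. The labels name 1 hairpin per target, so an effect of the target and an effect of that hairpin alone cannot be told apart.

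In the embryo, the double homeobox factor DUX4 appears briefly and binds near the start of many of these genes, which then peak together at the cleavage stages and fall silent. The same genes come on when DUX4 is made in muscle in facioscapulohumeral dystrophy. Most families lie in clusters of near-identical copies that expanded in primates. Most of them are not known as genes of the adult prostate.

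Depth was 10.56 to 19.36 M reads per library as read from the smallest steps of the values, with 10.56, 13.75 and 13.73 M in shPALI1. C10orf12 stood at 23.8% of its pLKO mean in shPALI1 and LCOR at 60.0%, while EHMT2 was at 25.7% in shG9a, JARID2 at 18.3% in shJarid2 and SUZ12 at 12.5% in shsuz12. Targeted genes also differed in other groups. EHMT2 was at 71.5% in shJarid2 and 80.3% in shsuz12 (limma adjusted p = 0.000986 and 0.0148). In shsuz12, JARID2 was at 141.2% and LCOR at 157.7%. C10orf12 was at 69.9% in shJarid2, which did not pass (limma adjusted p = 0.0765). The luminal prostate marker KLK3, which encodes prostate-specific antigen, was expressed in every group, with 300.1 ± 40.2 RPKM in shPALI1, 364 ± 21.6 in shG9a, 614 ± 103 in shJarid2, 594 ± 39.3 in shsuz12 and 1108 ± 64.8 in pLKO (SD, n = 3 each). KLK3 fell under all 4 hairpins (limma adjusted p of at most 3.83e-05), but its list did not fall throughout. Of the 9 luminal markers, 0 rose and 8 fell in shPALI1, 1 and 6 in shG9a, 4 and 3 in shJarid2, and 0 and 7 in shsuz12. Of all tested genes, 16.5% rose and 25.1% fell in shPALI1, 18.4% and 24.7% in shG9a, 23.8% and 27.2% in shJarid2, and 21.1% and 32.8% in shsuz12. HOXB13 was among those that rose in shJarid2, by 0.37 on the log2 scale (limma adjusted p = 0.00246). Other luminal markers, TMPRSS2, KLK2 and HOXB13, also fell in shPALI1, by 1.78, 1.92 and 1.02 on the log2 scale (limma adjusted p of at most 5.53e-07). The part of these changes in the results below was not tested. Replicate 3 of shJarid2 stood somewhat apart, with a correlation across genes of 0.974 and 0.978 with its group, where all other replicate pairs lay between 0.986 and 0.992. Genes are not independent replicates.

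Promoter sequence is shown first, because many members are known as direct targets of DUX4. RefSeq promoter windows (build GRCh38.p14), each 250 bases before to 50 bases after a start site, were in the reference table for 42 members, 48 windows in all. The motif searched was TAANNNAATCA, a loose form of the core that DUX4 is known to bind, on both strands. It was found in 15 of the 48 member windows (31.2%), 1 window for each of 15 members, and in 312 of all 35116 windows (0.888%). The 9 stretches below are from members whose shPALI1 libraries all lay above all pLKO libraries (that of PRAMEF7, the tenth, is identical to that of PRAMEF8), read 5′ to 3′ in the direction of the gene with the match in capitals; in MBD3L, LEUTX and RFPL4 genes the motif lies on the other strand, so the capitals are its reverse complement.
TRIM49B (chr11:49028659-49028699, plus strand): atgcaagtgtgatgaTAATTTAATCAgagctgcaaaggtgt
TRIM48 (chr11:55261994-55262034, plus strand): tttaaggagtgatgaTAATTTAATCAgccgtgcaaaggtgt
TRIM51 (chr11:55883063-55883103, plus strand): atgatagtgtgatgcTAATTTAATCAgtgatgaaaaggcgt
PRAMEF8 (chr1:13285314-13285354, minus strand): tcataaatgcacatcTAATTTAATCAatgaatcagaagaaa
MBD3L2 (chr19:7049239-7049279, plus strand): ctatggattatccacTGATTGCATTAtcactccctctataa
MBD3L3 (chr19:7058705-7058745, minus strand): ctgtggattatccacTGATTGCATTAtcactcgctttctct
LEUTX (chr19:39778788-39778828, plus strand): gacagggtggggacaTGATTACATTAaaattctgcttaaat
RFPL4A (chr19:55759013-55759053, plus strand): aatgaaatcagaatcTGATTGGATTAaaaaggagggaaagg
RFPL4AL1 (chr19:55769013-55769053, plus strand): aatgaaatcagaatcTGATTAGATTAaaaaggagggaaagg

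The TRIM and PRAMEF matches shown shared the core TAATTTAATCA, the MBD3L matches read TAATGCAATCA on their own strand, and LEUTX, RFPL4A and RFPL4AL1 each had a core of their own. LEUTX has no close copy, and its whole window (chr19:39778604-39778903, plus strand) is given to show the match in context.
LEUTX window: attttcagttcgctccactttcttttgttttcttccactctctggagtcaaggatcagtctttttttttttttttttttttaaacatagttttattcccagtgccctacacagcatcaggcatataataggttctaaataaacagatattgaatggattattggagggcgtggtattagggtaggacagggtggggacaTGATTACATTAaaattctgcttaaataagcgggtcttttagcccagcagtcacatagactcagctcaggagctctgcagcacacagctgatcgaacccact

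A narrower form, TAANCNAATCA, which is contained in the first, was in 3 of the 48 member windows (6.25%) and 0.242% of all windows. Motifs common to many promoters were also more frequent among the members: TATAAA was in 41.7% of their windows and 11.5% of all, and CCAAT was in 64.6% and 34.6%. These can share bases with the longer motif. Windows of neighbouring copies are near-identical, so the 15 matches are not independent of each other. Among members with a window, the motif was present for 10 of the 25 whose shPALI1 libraries all lay above all pLKO libraries and for 5 of the other 17. That split uses the shPALI1 values behind the choice of members, so nothing is read from it. The 5 include TRIM49D1, TRIM49D2 and MBD3L4, near-copies that were listed at 0 in every library. As many members are known DUX4 targets, the share of windows with the motif was also set in part by the choice. PRAMEF12, KHDC1L and ZSCAN4, which lay high in shPALI1, had no match of these letters in the windows searched. A match is not a measured binding site. The RefSeq starts can differ from the GENCODE v29 gene positions given below. For TRIM49B the stretch shown begins at 49028659 and the GENCODE gene at 49027501, so the match lies inside that gene. Which start is used in these cells was not tested.

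**Figure D1:**
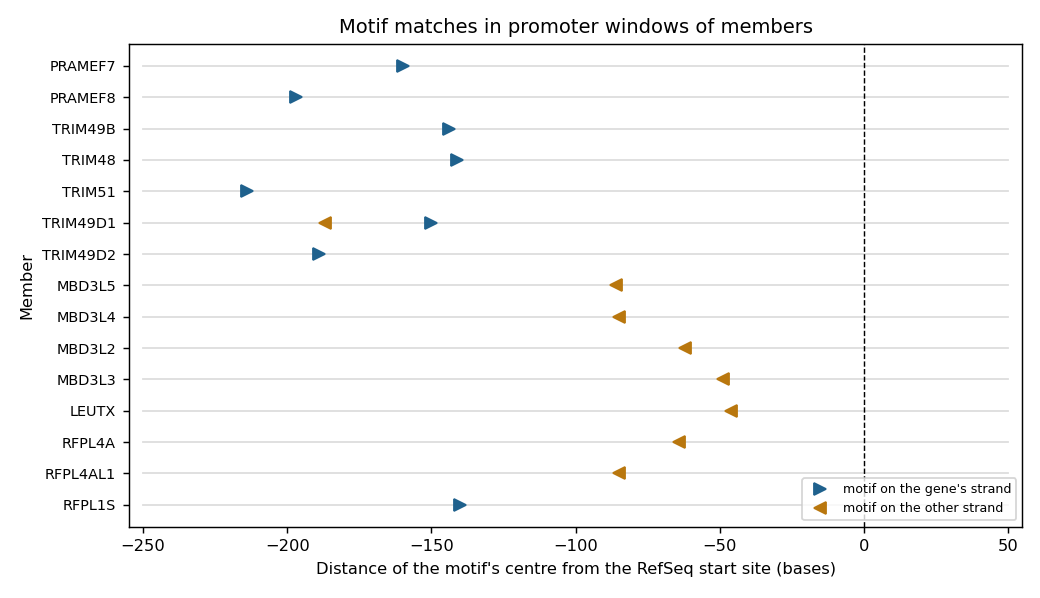
Position of each TAANNNAATCA match in the promoter windows of the 15 members that hold one; the x axis is the distance in bases of the motif's centre from the RefSeq start site (dashed line) and arrows give the strand. The MBD3L, LEUTX and RFPL4 matches lie on the strand opposite to the gene within 100 bases of the start, and the TRIM49, TRIM48, TRIM51 and PRAMEF matches on the gene's own strand lie farther upstream.

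About as many members stood above pLKO in shPALI1 as did not, and few had more than traces in the other groups. Over all 55 members, 44 had a value above 0 in at least 1 shPALI1 library, against 21 in shG9a, 22 in shJarid2, 26 in shsuz12 and 28 in pLKO. The number above 0 in all 3 libraries was 33 in shPALI1, 4 in shG9a, 6 in shJarid2, 12 in shsuz12 and 10 in pLKO. Levels are in RPKM, that is, reads scaled by gene length and library size. A mean of at least 1 RPKM was reached by 21 members in shPALI1, 2 each in shG9a, shJarid2 and shsuz12, and 4 in pLKO. The levels summed over the 55 members were 80.4, 75.3 and 65.6 RPKM in shPALI1, against 7.52, 8.21 and 9.49 RPKM in pLKO. In bulk RNA, a few cells with much of an RNA and many cells with little of it cannot be told apart.

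All 3 shPALI1 libraries lay above all 3 pLKO libraries for 29 of the 55 members and below them for 0. Among all 22021 genes with a value above 0 in any library, the share above was 16.7% and the share below 21.1%; since these libraries gave the members their place here, nothing is read from the difference. The 29 comprised 11 PRAMEF genes, 9 TRIM genes, 3 RFPL genes, 2 MBD3L genes, KHDC1L, ZSCAN4, LEUTX and CCNA1. Of the other 26, 11 were listed at 0 in every library and 15 had values that overlapped between shPALI1 and pLKO. Only 19 members passed the filter of at least 1 RPKM in at least 3 libraries, and 3 would have passed it without shPALI1 (PRAMEF12, KHDC1 and DUXAP8). The limma fit called 16 of those 19 higher and 0 lower in shPALI1 than in pLKO, beside 16.5% and 25.1% of the 12713 tested genes; these counts follow from the choice of members and from a filter that most of them passed through shPALI1, and they support nothing.

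**Figure D2:**
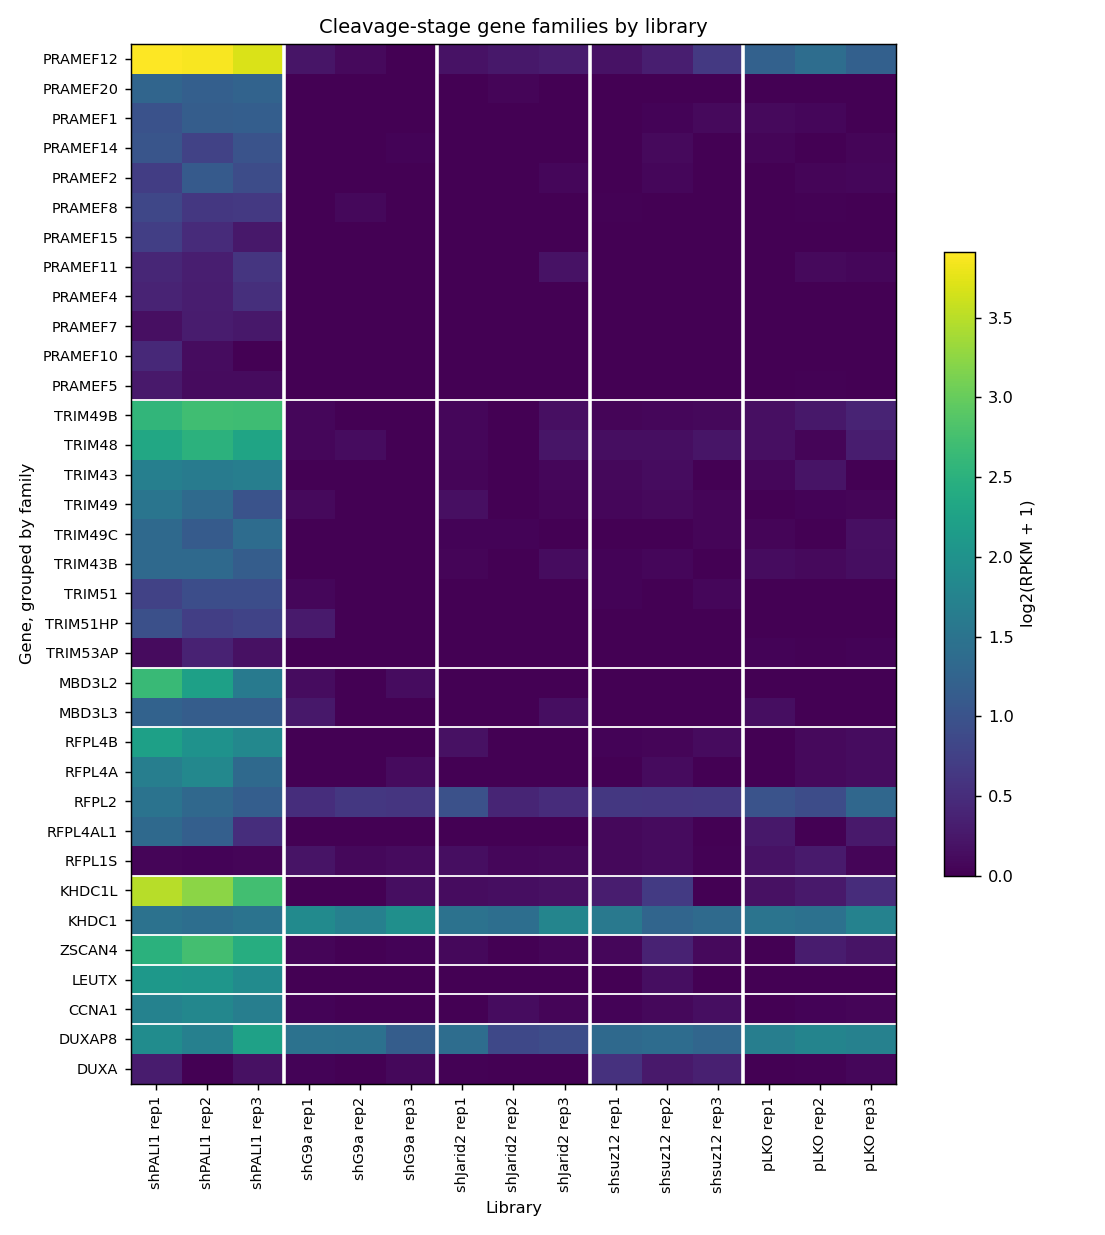
Level of the 35 members with a mean of at least 0.1 RPKM in any group, by library; rows are genes grouped by family, columns are libraries, and colour is log2(RPKM + 1). The 3 shPALI1 columns are brighter than the others for most rows, though rows under 1 RPKM stay dark, while KHDC1, DUXAP8 and RFPL2 have signal in every group.

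The PRAMEF genes encode leucine-rich repeat proteins related to the tumour antigen PRAME, which acts as a substrate adaptor of a ubiquitin ligase. In GENCODE v29, 18 of the 20 have a position, and they lie together on chromosome 1 between 12774841 and 13421328 (GRCh38). Summed over the family, the level was 19.8 ± 1.26 RPKM in shPALI1 and 1.57 ± 0.226 RPKM in pLKO (mean ± SD, n = 3 each).

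PRAMEF12 (chr1:12774841-12777906, plus strand, protein-coding) had the highest level of any member. It stood at 14.1, 13.6 and 11.9 RPKM in shPALI1 and at 1.32, 1.62 and 1.30 RPKM in pLKO. The shPALI1 libraries lay above every other library, and the ratio of the means was 9.33. PRAMEF12 was also the PRAMEF gene best covered in the control, with 29, 46 and 27 inferred reads in pLKO beside 264, 333 and 291 in shPALI1.

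PRAMEF20, at the other end of the cluster, had 1.42, 1.28 and 1.37 RPKM in shPALI1, and it was listed at 0 in all pLKO libraries. PRAMEF1 had 0.971, 1.22 and 1.26 RPKM in shPALI1 and 0.066, 0.051 and 0 RPKM in pLKO. PRAMEF14 had 1.05, 0.706 and 1.01 RPKM in shPALI1 and 0.037, 0 and 0.04 RPKM in pLKO. For each of these 3 genes the shPALI1 libraries lay above all others in the series. PRAMEF2, PRAMEF8, PRAMEF15, PRAMEF11, PRAMEF4, PRAMEF7 and PRAMEF5 made up the rest of the 11 and had lower levels. Among these, PRAMEF2 was the highest, with 0.634, 1.15 and 0.887 RPKM in shPALI1 and 0, 0.038 and 0.052 RPKM in pLKO. PRAMEF10 had 0.373, 0.095 and 0 RPKM in shPALI1 and 0 in pLKO. Its shPALI1 libraries therefore met those of pLKO at 0, as did those of PRAMEF6 and PRAMEF19, which each had a value in 1 shPALI1 library only. PRAMEF25, PRAMEF26, PRAMEF9, PRAMEF22, PRAMEF16 and PRAMEF17 were listed at 0 throughout.

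The TRIM genes here are members of the tripartite motif family of RING-type ubiquitin ligases, arranged as copies on chromosome 11, with TRIM43 and TRIM43B on chromosome 2. Their sum was 18.0 ± 0.555 RPKM in shPALI1 and 0.594 ± 0.215 RPKM in pLKO (SD, n = 3 each), the smallest relative spread among shPALI1 libraries of the multigene families.

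TRIM49B (chr11:49027501-49038451, plus strand) had 4.95, 5.56 and 5.52 RPKM in shPALI1 and 0.119, 0.185 and 0.316 RPKM in pLKO, a ratio of means of 25.9. TRIM48 (chr11:55262182-55271119, plus strand) had 4.06, 4.73 and 3.88 RPKM in shPALI1 and 0.112, 0.043 and 0.238 RPKM in pLKO, a ratio of 32.3. TRIM43 (chr2:95592018-95599778, plus strand) had 2.22, 2.10 and 2.20 RPKM in shPALI1 and 0.05, 0.155 and 0 RPKM in pLKO, a ratio of 31.9. In all 3 genes the groups were far apart and the shPALI1 replicates close together. The ratios are imprecise, as they rest on 11, 7 and 5 inferred reads over the pLKO libraries for TRIM49B, TRIM48 and TRIM43.

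TRIM43B stood at 1.53, 1.53 and 1.22 RPKM in shPALI1 and at 0.097, 0.075 and 0.103 RPKM in pLKO. TRIM49 had 1.88, 1.55 and 1.01 RPKM in shPALI1 and 0, 0.029 and 0.04 RPKM in pLKO. TRIM49C had 1.53, 1.18 and 1.62 RPKM in shPALI1 and 0.037, 0 and 0.119 RPKM in pLKO. These 3 copies were also higher in every shPALI1 library than in any library of the other groups. TRIM51 and the pseudogene TRIM51HP were at 0.65 to 0.94 RPKM in shPALI1 and listed at 0 in pLKO. The pseudogene TRIM53AP was low in both groups, with 0.082, 0.294 and 0.126 RPKM in shPALI1 and 0.023, 0.018 and 0.025 RPKM in pLKO. TRIM64 and TRIM64B had values in shPALI1 replicates 1 and 3 only, and TRIM64C, TRIM49D1 and TRIM49D2 were listed at 0 in every library.

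The MBD3L genes encode proteins that resemble the chromatin protein MBD3 but lack its methyl-CpG-binding domain; MBD3L2 is known to counter the NuRD repressor complex and raise DUX4 in muscle cells. MBD3L2 (chr19:7049321-7051735, plus strand) had 5.26, 3.66 and 2.07 RPKM in shPALI1 and was listed at 0 in all libraries of pLKO, shJarid2 and shsuz12. Inferred reads were 43, 39 and 22 in shPALI1. MBD3L3 had 1.35, 1.22 and 1.23 RPKM in shPALI1 and 0.105, 0 and 0 RPKM in pLKO. The shPALI1 libraries of both genes lay above all others, but those of MBD3L2 were spread widely. MBD3L5 and MBD3L1 had a value in 1 shPALI1 library each, and MBD3L4 had none.

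The RFPL genes, named for their likeness to the ret finger protein, fell into those that were high in shPALI1 and those whose shPALI1 and pLKO libraries overlapped. RFPL4B (chr6:112347330-112351296, plus strand) had 3.69, 2.99 and 2.53 RPKM in shPALI1 and 0, 0.066 and 0.09 RPKM in pLKO, a ratio of means of 58.8. RFPL4A (chr19:55759014-55763175, plus strand) had 2.19, 2.56 and 1.53 RPKM in shPALI1 and 0, 0.069 and 0.094 RPKM in pLKO. RFPL4AL1 had 1.54, 1.26 and 0.422 RPKM in shPALI1 and 0.187, 0 and 0.199 RPKM in pLKO. All 3 RFPL4 genes were without overlap between shPALI1 and pLKO, and the ratio of 8.34 for RFPL4AL1 was the lowest among the 11 such members with more than 3 inferred reads over the pLKO libraries. The median ratio of these 11 was 29.3, and RFPL4B had the highest. Its ratio rests on 4 inferred reads over the 3 pLKO libraries, so the ranking is imprecise. RFPL2 differed from the RFPL4 genes: its values of 1.81, 1.5 and 1.26 RPKM in shPALI1 overlapped those of 1.01, 0.876 and 1.48 RPKM in pLKO. RFPL1, RFPL3 and the antisense or non-coding RFPL1S and RFPL3S stayed at or below 0.221 RPKM in shPALI1 and pLKO. RFPL1S was the only one of these that reached a mean of 0.1 RPKM, and it did so in shG9a and pLKO, with 0.037, 0.028 and 0.043 RPKM in shPALI1 and 0.142, 0.221 and 0.034 RPKM in pLKO. Counting by strand is not stated, so reads of RFPL1S and of the RFPL1 gene it lies opposite cannot be told apart.

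KHDC1L and KHDC1 are neighbours on chromosome 6 and encode proteins with a KH domain, a fold known for binding RNA. KHDC1L (chr6:73223544-73225770, minus strand) had 10.3, 8.37 and 5.63 RPKM in shPALI1 and 0.128, 0.198 and 0.406 RPKM in pLKO. The ratio of means was 33.2, on 6 inferred reads over the pLKO libraries. KHDC1 (chr6:73241314-73310365, minus strand) had 1.78, 1.68 and 1.80 RPKM in shPALI1 and 1.84, 1.75 and 2.31 RPKM in pLKO. The groups overlapped for KHDC1 and were widely separated for KHDC1L, although the genes lie side by side on the same strand.

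ZSCAN4, a zinc finger protein known in mouse embryonic stem cells for telomere maintenance, is on chromosome 19 (chr19:57668935-57679152, plus strand). It had 4.64, 5.67 and 4.44 RPKM in shPALI1 and 0, 0.224 and 0.153 RPKM in pLKO. The ratio of means was 39.2, on 12 inferred reads over the pLKO libraries. LEUTX, a paired-like homeobox factor of the early embryo, had 3.24, 3.14 and 2.71 RPKM in shPALI1, from 23, 29 and 25 inferred reads, and was listed at 0 in all pLKO libraries. CCNA1 (chr13:36431520-36442882, plus strand) encodes cyclin A1, which in mice is needed for male meiosis. It had 2.35, 2.5 and 2.18 RPKM in shPALI1 and 0, 0.027 and 0.037 RPKM in pLKO. In these 3 single-copy genes every shPALI1 library lay above every library of the other 4 groups.

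**Figure D3:**
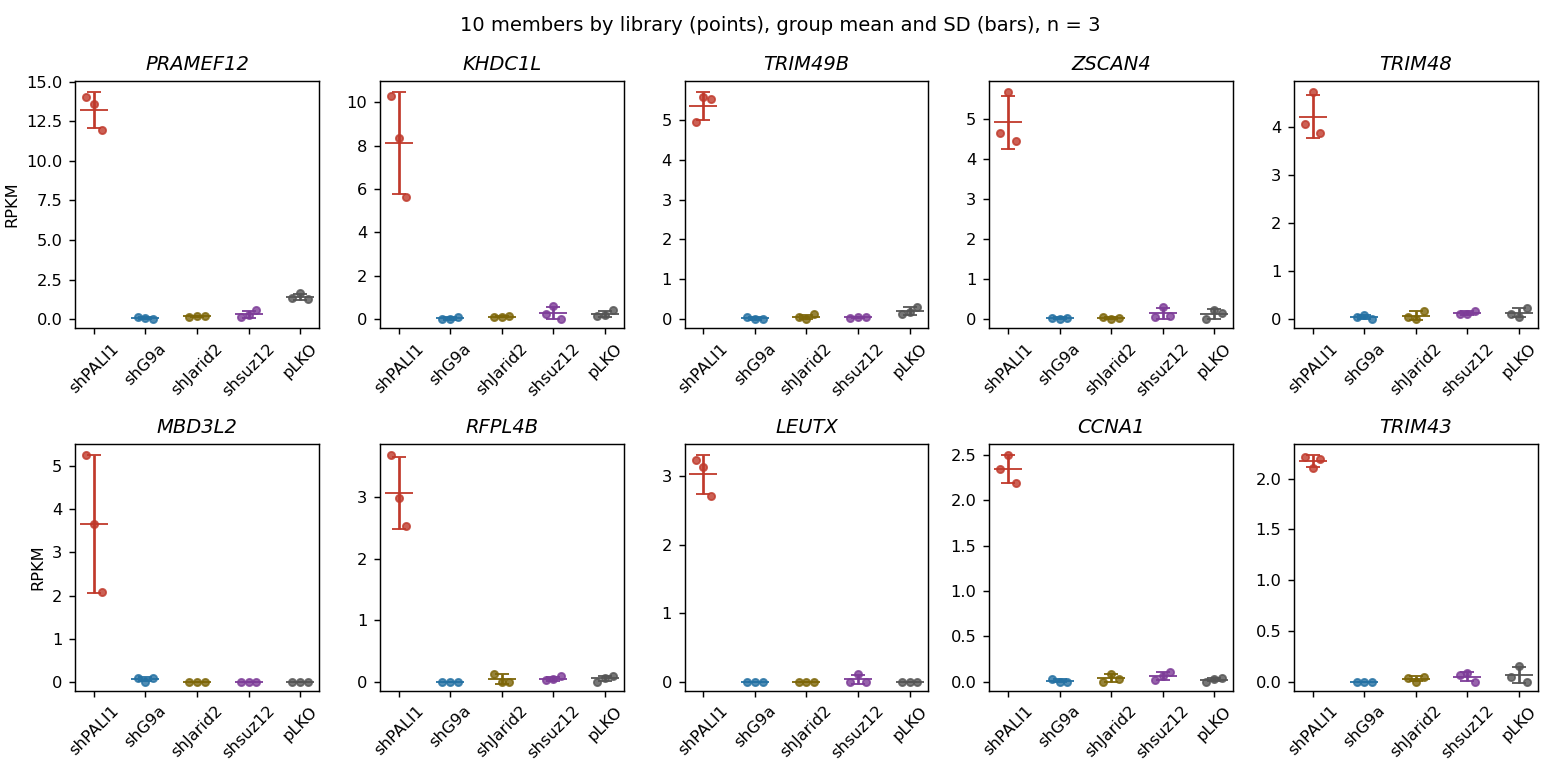
RPKM by library for 10 members; points are libraries, horizontal lines are group means and bars are SD (n = 3), with groups on the x axis. In each panel the 3 shPALI1 libraries stand apart from the other 12, and MBD3L2 and KHDC1L are the most spread within shPALI1.

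The shPALI1 libraries did not differ from each other in the same way for each gene. Of the 29 members with a mean of at least 0.3 RPKM in shPALI1, 4 were lowest in replicate 1, 11 in replicate 2 and 14 in replicate 3. MBD3L2, KHDC1L, RFPL4B and RFPL4AL1 were lowest in replicate 3, whereas TRIM49B and PRAMEF1 were lowest in replicate 1.

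DUXA encodes a double homeobox protein, and DUXAP8 and DUXAP10 are pseudogene relatives. DUXA (chr19:57154021-57167443, minus strand) was at 0.226, 0 and 0.131 RPKM in shPALI1 and at 0, 0.019 and 0.051 RPKM in pLKO, so the groups overlapped. DUXAP8 (chr22:15784959-15829984, plus strand) had 2.74, 2.24 and 3.70 RPKM in shPALI1 and 2.19, 2.38 and 2.28 RPKM in pLKO, which also overlapped. DUXAP10 was listed at 0 everywhere.

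The other 3 hairpins gave a different picture: no member passed the test as higher than pLKO, and the few that passed were lower. These 3 comparisons share the pLKO libraries. With limma on log2(RPKM + 1), members called lower were 2 in shG9a, 3 in shJarid2 and 2 in shsuz12. RFPL2, which passed the filter only through shPALI1, was among them in each group. The share of all tested genes called lower was 24.7% in shG9a, 27.2% in shJarid2 and 32.8% in shsuz12. The share called higher was 18.4%, 23.8% and 21.1% in the same order, beside 0 members; at an unadjusted p under 0.05 there was 1 in shG9a (KHDC1) and 0 in each of the others. Most of the 19 members that passed the filter were near 0 in all 4 of these groups, so a fall could not be detected in them at this depth.

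PRAMEF12, which had the highest level in shPALI1, fell under each of the other hairpins. It had 0.165, 0.074 and 0 RPKM in shG9a, 0.142, 0.191 and 0.226 RPKM in shJarid2 and 0.145, 0.25 and 0.561 RPKM in shsuz12, against 1.32, 1.62 and 1.30 RPKM in pLKO. Every library of the 3 hairpin groups lay below every pLKO library. In inferred reads this was 6 over the 3 shG9a libraries, 14 in shJarid2 and 23 in shsuz12, against 102 in pLKO. On the log2(RPKM + 1) scale the change was -1.16 ± 0.12 in shG9a (SE, limma adjusted p = 2.98e-06), -1.02 ± 0.12 in shJarid2 (limma adjusted p = 5.95e-06) and -0.88 ± 0.12 in shsuz12 (limma adjusted p = 2.24e-05).

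RFPL2 (chr22:32190435-32203477, minus strand) was also lower than in pLKO under each. It had 0.432, 0.556 and 0.513 RPKM in shG9a, 0.952, 0.325 and 0.413 RPKM in shJarid2 and 0.55, 0.543 and 0.549 RPKM in shsuz12, against 1.01, 0.876 and 1.48 RPKM in pLKO. The shG9a and shsuz12 libraries lay below all pLKO libraries, and shJarid2 replicate 1 lay among them. Outside shPALI1, RFPL2 reached 1 RPKM only in pLKO replicates 1 and 3. It was therefore tested only because the filter counted the shPALI1 libraries. The limma adjusted p was 0.014 in shG9a (log2 change -0.49 ± 0.15, SE), 0.0179 in shJarid2 (-0.45 ± 0.15) and 0.0186 in shsuz12 (-0.45 ± 0.15). Without pLKO replicate 3, the highest control library for this gene, the adjusted p was 0.0674 in shG9a, 0.0899 in shJarid2 and 0.0895 in shsuz12. In shJarid2 it was 0.0854 without replicate 2 and 0.0573 without replicate 3 of that group.

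DUXAP8 passed the test in shJarid2 alone. It had 1.78, 1.75 and 1.23 RPKM in shG9a, 1.65, 0.807 and 0.877 RPKM in shJarid2 and 1.52, 1.61 and 1.46 RPKM in shsuz12, against 2.19, 2.38 and 2.28 RPKM in pLKO. All hairpin libraries of these groups lay below the pLKO libraries. The change was -0.66 ± 0.15 on the log2(RPKM + 1) scale in shJarid2 (SE, limma adjusted p = 0.00246), with adjusted p of 0.0776 in shG9a and 0.0516 in shsuz12. Fitted on the 6 libraries of the comparison alone, the limma adjusted p was 0.0265 in shG9a and 0.00525 in shsuz12. Whether the change differs between these hairpins was not tested.

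KHDC1 was the member with the highest level in shG9a, at 2.67, 2.24 and 2.88 RPKM, against 1.84, 1.75 and 2.31 RPKM in pLKO. The groups overlapped and the change of 0.28 ± 0.12 did not pass (SE, limma adjusted p = 0.0712); without pLKO replicate 3 it was 0.36 and passed (limma adjusted p = 0.0389). TRIM49B had 0.054, 0 and 0 RPKM in shG9a, against 0.119, 0.185 and 0.316 RPKM in pLKO, and its change of -0.24 ± 0.09 did not pass either (SE, limma adjusted p = 0.0523), but passed without pLKO replicate 1 (limma adjusted p = 0.0383) and with a pseudocount of 0.1 or 0.5. Without the filter TRIM49B passed as lower in all 3 groups, with limma adjusted p of 0.015 in shG9a, 0.0398 in shJarid2 and 0.0346 in shsuz12. These p rest on few reads: 11 inferred reads over the 3 pLKO libraries, against 1 in shG9a and 3 each in shJarid2 and shsuz12. TRIM49B passed the filter only through shPALI1. KHDC1L under shsuz12 had 0.244, 0.583 and 0 RPKM, against 0.128, 0.198 and 0.406 RPKM in pLKO, and the groups overlapped.

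Judged by libraries alone, over all 55 members, 0 were above and 7 below pLKO without overlap in shG9a. The shares were 18.6% and 21.7% of the 22021 genes with a value above 0 in any library. Of the 55 members, 44 had such a value. In shJarid2, 0 were above and 5 below, beside 16.0% and 20.1%. In shsuz12, 1 was above and 6 below, beside 19.1% and 24.4%. PRAMEF12, TRIM49B, TRIM53AP and DUXAP8 were below pLKO in all 3, TRIM43B and RFPL2 in shG9a and shsuz12, and KHDC1L in shG9a and shJarid2. For TRIM49B and KHDC1L in shJarid2 the gap was small, with the nearest libraries at 0.118 RPKM in shJarid2 and 0.119 RPKM in pLKO for TRIM49B and at 0.127 and 0.128 RPKM for KHDC1L. For TRIM53AP and TRIM43B this rests on pLKO values of at most 0.103 RPKM.

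The member above pLKO in shsuz12 was DUXA. It had 0.478, 0.199 and 0.273 RPKM in shsuz12 and 0, 0.019 and 0.051 RPKM in pLKO. These levels correspond to 31, 9 and 11 inferred reads in shsuz12, against 0, 1 and 2 in pLKO, so all shsuz12 libraries were above all control libraries. DUXA also reached a higher mean in shsuz12 than in shPALI1, although 1 shPALI1 library lay within the shsuz12 range. It did not pass the filter for the test. The size of 1 read implies a gene model of 3346 bases for DUXA in the deposited table, while the longest GENCODE v29 transcript has 1006 bases, so where in the locus these reads lie was not tested.

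**Figure D4:**
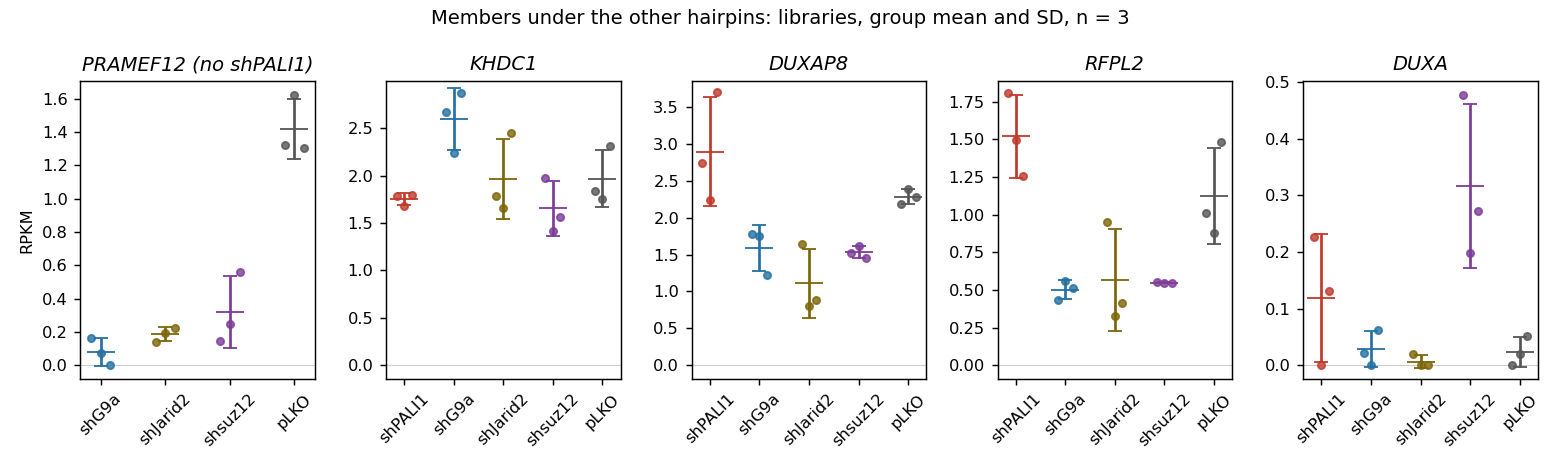
RPKM by library for the 5 members described under the other hairpins; points are libraries, horizontal lines are group means and bars are SD (n = 3), and shPALI1 is left out of the PRAMEF12 panel because of its scale. PRAMEF12 is lower in all hairpin groups shown than in pLKO, and DUXA is highest in shsuz12.

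Set directly against the other hairpins, which avoids the pLKO libraries, 31 of the 55 members were higher in shPALI1 than in shG9a, 31 than in shJarid2 and 31 than in shsuz12, with no overlap. The shares of the 22021 genes with a value above 0 in any library were 22.4%, 23.7% and 24.7% in the same order. Lower in shPALI1 without overlap were 2 members against shG9a (RFPL1S and KHDC1), 1 against shJarid2 (RFPL1S) and 0 against shsuz12. The shares of the same 22021 genes were 22.0%, 20.9% and 21.5%. KHDC1 had 1.78, 1.68 and 1.80 RPKM in shPALI1 and 2.67, 2.24 and 2.88 RPKM in shG9a. In addition to the 29 members named for pLKO, DUXAP8 and RFPL2 were above the other hairpins, with DUXAP8 at 2.89 ± 0.739 RPKM in shPALI1 and 1.11 ± 0.467 RPKM in shJarid2 (SD, n = 3 each). In the limma fit, members called higher and lower in shPALI1 were 18 and 1 against shG9a (24.1% and 24.1% of all tested genes), 18 and 0 against shJarid2 (30.5% and 31.8%) and 18 and 0 against shsuz12 (30.9% and 25.0%). These counts too were fixed by the choice of members and by the filter, and they support nothing. These comparisons share the shPALI1 libraries.

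Many members are near-copies, and how reads that match several copies were counted is not given in the sources used here. In GENCODE v29, 53 members have a transcript, and each was cut into all its windows of 50 bases. For the 9 members with a transcript that were listed at 0 in every library, a median of 7.2% of windows occurred in no other gene, with a range of 0 to 86.2%. For the 44 others the median was 32.8%, with a range of 6.9 to 100%.

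The members that were high in shPALI1 covered the whole range. PRAMEF12 had 96.7% of its windows to itself and ZSCAN4, LEUTX and CCNA1 100%, so few or none of their windows match another annotated gene exactly. Copies outside the annotation and copies that differ by single bases were not searched. MBD3L2 had 9.9% of its windows to itself and shared 82.8% with MBD3L2B. TRIM43 had 22.7% and shared 76.9% with TRIM43B, and TRIM49 had 14.6% and shared 83.6% with TRIM49C. KHDC1L had 31.2%, and the rest was shared mostly with an annotated transcript named AL365232.1. DUXAP8 had 27.1% and shared 71.6% with DUXAP10, which was listed at 0 in every library. In these copies the level of the single gene is uncertain, and so is the copy to which the fall called for DUXAP8 in shJarid2 belongs. PRAMEF17 was listed at 0 in every library although 86.2% of its windows are its own, and MBD3L1, with 100%, averaged 0.042 RPKM in shPALI1.

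**Figure D5:**
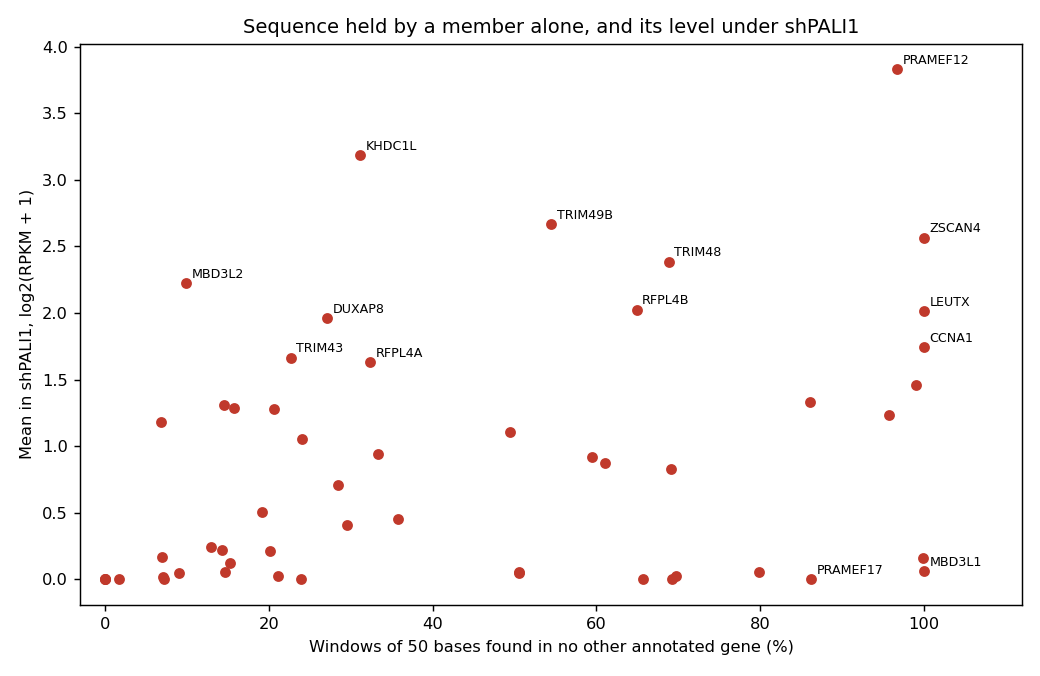
Share of 50-base windows of each member found in no other annotated gene (x axis, %) against its mean level in shPALI1 (y axis, log2(RPKM + 1)); each point is 1 of the 53 members with a GENCODE v29 transcript. PRAMEF12, ZSCAN4, LEUTX and CCNA1 are high with sequence of their own, and PRAMEF17 is at 0 with 86.2% of its windows unique.

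Embryonic homeobox and related factors outside the families, DUX4 among them, were at or near 0. Of the embryonic homeobox and related regulators in the list, 8 were in the table and 0 passed the filter. DPRX, DPPA2, DPPA4 and OTX2 were listed at 0 in every library, and the sum over the 8 was 0.051 to 0.162 RPKM in shPALI1 and 0 to 0.054 RPKM in pLKO. TPRX1 had 0.051, 0.079 and 0.119 RPKM in shPALI1 and 0, 0.034 and 0 RPKM in pLKO. It was listed at 0 in all libraries of the other hairpins. DUX4 itself had a value in 1 library each of shPALI1 and shG9a, at 0.043 RPKM in both, and was listed at 0 in all other libraries, those of pLKO included. DUX4 lies in repeated copies, and how reads of such copies were assigned is not known.

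Other genes known as DUX4 targets, outside the families, numbered 12 in the table, of which 5 passed the filter. SLC34A2 and KDM4E passed it through shPALI1 alone, so their values are a description. SLC34A2, a sodium-phosphate transporter, had 2.57 ± 0.306 RPKM in shPALI1 and 0.048 ± 0.012 RPKM in pLKO (SD, n = 3 each), and it was at most 0.098 RPKM in any library outside shPALI1. KDM4E, a histone demethylase of the KDM4 family, had 1.31 ± 0.092 RPKM in shPALI1 and 0.012 ± 0.02 RPKM in pLKO, and at most 0.071 RPKM outside shPALI1. Of the other 3 tested, TC2N fell by 0.36 in shPALI1 on the log2 scale (limma adjusted p = 0.0155). The median change of the 5 was -0.05, beside -0.05 for all tested genes. Too low for the test, FAM90A1 had 0.796 ± 0.192 RPKM in shPALI1 and 0.031 ± 0.034 RPKM in pLKO, and ALPPL2 had 0.37 ± 0.017 RPKM in shPALI1 and 0.017 ± 0.029 RPKM in pLKO (SD, n = 3 each). Of the other untested genes, ZSCAN5B averaged 0.29 RPKM in shPALI1 and 0.043 RPKM in pLKO, and HNRNPCL1 0.0685 and 0 RPKM. ZNF280A averaged 0.098 RPKM in shPALI1, 0.1 RPKM in shG9a and 0.0066 RPKM in pLKO. CXCR4 averaged 0.116 RPKM in shPALI1 and 0.151 RPKM in pLKO, and USP17L2 was listed at 0 in both groups.

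Repressors known for DUX4 or its mouse relative Dux were expressed in all groups. All 20 passed the filter, among them EHMT2, the target of shG9a. In number, 3 rose and 6 fell in shPALI1, and 4 rose and 6 fell in shG9a. In shJarid2 3 rose and 8 fell, and in shsuz12 2 rose and 10 fell. Of all tested genes, 16.5% rose and 25.1% fell in shPALI1, and 18.4% and 24.7% in shG9a. The shares were 23.8% and 27.2% in shJarid2 and 21.1% and 32.8% in shsuz12. Whether the repressors differ from all tested genes was not tested. The median change of the 20 repressors was 0, -0.22, -0.16 and -0.21 in these groups, beside -0.05, -0.04, -0.04 and -0.08 for all tested genes. The falls in shPALI1 were those of HDAC1, CHAF1A, DNMT1, L3MBTL2, CHAF1B and SMCHD1. The rises were those of HDAC2, MTA2 and LRIF1, by 0.29, 0.22 and 0.28 on the log2 scale (limma adjusted p of at most 0.0156). LRIF1 also rose by 0.54 in shG9a, 1.29 in shJarid2 and 0.41 in shsuz12 (limma adjusted p = 0.000161, 3.08e-08 and 0.00104). CHAF1A, a subunit of the chromatin assembly factor CAF-1, fell by 0.57 in shPALI1, by 0.30 in shG9a, by 0.87 in shJarid2 and by 0.89 in shsuz12 on the log2 scale (limma adjusted p = 0.000278, 0.0207, 4.11e-06 and 3.19e-06). DNMT1, the maintenance DNA methyltransferase, fell by 0.48 in shPALI1, 0.53 in shG9a, 1.03 in shJarid2 and 0.85 in shsuz12 (limma adjusted p = 0.000281, 0.000131, 1.48e-07 and 9.89e-07). SMCHD1, a repressor whose loss is a cause of facioscapulohumeral dystrophy, had 12.8 ± 1.05 RPKM in shPALI1, 13.7 ± 0.295 in shG9a, 18.0 ± 6.02 in shJarid2, 13.5 ± 1.59 in shsuz12 and 18.1 ± 1.56 in pLKO (SD, n = 3 each). Its limma adjusted p was 0.049 in shPALI1, 0.103 in shG9a, 0.787 in shJarid2 and 0.0752 in shsuz12.

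Few genes of neighbouring programmes were expressed enough to be tested. Of 18 oocyte genes in the table, 4 passed the filter, and 0 rose and 1 fell in shPALI1, beside 16.5% and 25.1% of all tested genes. The 1 that fell was TLE6 (log2 change -0.79 ± 0.08 SE, limma adjusted p = 2.76e-06). Of 14 pluripotency genes, 1 passed the filter and it was not called. Of 5 germ-line markers, SYCP3, a protein of the meiotic chromosome axis, was the only 1 tested. It rose in shPALI1, by 0.52 ± 0.17 on the log2 scale (limma adjusted p = 0.0263), and in shsuz12, by 1.22 ± 0.17 (SE, limma adjusted p = 4.37e-05). The sum of the 5 was 3.10 to 4.83 RPKM in shPALI1, 6.0 to 7.26 RPKM in shsuz12 and 2.08 to 3.09 RPKM in pLKO, mostly SYCP3. DDX4 averaged 0.008 RPKM and DAZL 0 in shPALI1.

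Markers of other cell types were low. The 5 fibroblast markers summed to 5.15 to 5.65 RPKM in shPALI1 and 4.57 to 5.31 RPKM in pLKO, with COL3A1 higher and COL1A1 lower in shPALI1. The 5 immune markers summed to 4.00 to 4.79 RPKM in shPALI1 and 2.24 to 3.23 RPKM in pLKO, nearly all of it CD68, with CD3E and PTPRC at 0 in shPALI1. The 4 endothelial markers summed to 0.479 to 0.674 RPKM in shPALI1 and 0.753 to 0.97 RPKM in pLKO. The part of such cells in the levels of the families was not tested.

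Genes that lie near the members without belonging to them were counted as well. Within 500 kb of a member, 146 other genes passed the filter. In shPALI1 against pLKO, 31 of them rose (21.2%) and 22 fell (15.1%), with a median change of 0.02 on the log2 scale beside -0.05 for all tested genes. In shG9a 26 rose and 25 fell, in shJarid2 26 rose and 37 fell, and in shsuz12 33 rose and 33 fell. These are counts beside the shares for all genes given above, with no test of the difference.

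The genes whose pattern over the 15 libraries was most like that of PRAMEF12 were WDR75, UBE2E3, TTPA, KCNK17 and EFNB2, with Pearson r of log2(RPKM + 1) of 0.982, 0.970, 0.968, 0.968 and 0.966. They were taken as the 5 highest of all tested genes outside the families, and the 15 libraries fall into 5 groups, so r is a description. WDR75 had 38.9 ± 1.21 RPKM in shPALI1, 16.0 ± 0.359 in shG9a, 16.2 ± 0.696 in shJarid2, 19.0 ± 0.769 in shsuz12 and 22.1 ± 1.26 in pLKO (SD, n = 3 each). TTPA had 2.35 ± 0.342 RPKM in shPALI1, 0.336 ± 0.053 in shG9a, 0.158 ± 0.044 in shJarid2, 0.454 ± 0.077 in shsuz12 and 0.785 ± 0.135 in pLKO. As with PRAMEF12, their order had shPALI1 highest and pLKO next.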

How the data were processed

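The authors deposited 1 table of RPKM values (reads scaled by gene length and library size), with 1 column per library; reads were aligned with STAR to hg38, per the submitters' processing notes. Not given in the sources used here are the counter, the gene annotation, the treatment of reads that match several genes and the use of strand. Column sums lay between 250148 and 318730. Depth was inferred from the RPKM worth of 1 read in 2295 short RNA genes; 92.7% to 94.8% of their low values then came within 0.05 of a whole number of reads, a check that is partly circular. Reads of members were inferred the same way.

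Of 26475 names, 26441 with values were used; 2 names on a second line were left out. Differences were tested on log2(RPKM + 1) with limma 3.58.1 in R 4.3.3 (two-sided, mean-variance trend, 1 model over 15 libraries), over 12713 genes with at least 1 RPKM in at least 3 libraries. Adjusted p is Benjamini-Hochberg over these genes, passed at 0.05. On this scale changes of low genes are understated. The procedure was tested on simulated data. The labels do not say that replicates were separate cultures, so p measures library-to-library spread, which may be technical.

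Members and lists were chosen with earlier results of these data known. Named were members that passed the filter or had a mean of at least 0.1 RPKM in any group. Also named were the targeted genes, at most 4 passing genes per list and comparison, and the 5 genes most like PRAMEF12. Low list genes and the further falls and the rises among repressors are named beyond that rule. They were chosen after their values were seen, as were the motif forms. 1 marker gene and the summed level of its list are not reported here. Positions and transcripts are from GENCODE v29, promoters from RefSeq (GRCh38.p14). Alternatives were other pseudocounts, filters and scalings, the 6 libraries of a comparison alone, the replicate number as a term, and each library left out.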

Additional observations from a re-analysis of the deposited data

How the results depend on the processing

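Without the filter, members called higher in shPALI1 were 30 against pLKO and 33 against each of shG9a, shJarid2 and shsuz12, in place of 16, 18, 18 and 18, and 1 was called lower against shsuz12. With a filter on a mean of at least 3 RPKM, 1 member was called higher in each of these 4 comparisons and 0 lower against shG9a, because few members were left to test. That filter also left 1 member called lower in each of shG9a, shJarid2 and shsuz12 against pLKO. Without a filter, 1 member was called higher in shsuz12 against pLKO, DUXA, and TRIM49B was added to those called lower, which made 3 in shG9a, 4 in shJarid2 and 3 in shsuz12. KHDC1 was the 1 member called higher in shG9a after rescaling to a common sum (TPM, adjusted p = 0.029), and without pLKO replicate 3. Leaving out each library in turn gave 16 members higher in shPALI1 against pLKO in every case, and 18 against each other hairpin, counts that the choice of members fixed and that are no sign of stability. It gave 0 to 1 higher and 1 to 3 lower in shG9a, 2 to 3 lower in shJarid2, 1 to 2 lower in shsuz12, and 0 to 1 lower in shPALI1 against shG9a, with 0 when shG9a replicate 3 was left out. With median ratio scaling, 3 members lay below pLKO without overlap in shJarid2 in place of 5, and 2 above in shsuz12 in place of 1. RFPL2 in shJarid2 did not pass with its 6 libraries alone (adjusted p = 0.0843). No change recomputed in these settings (the 6 members with the largest difference of means in each comparison) reversed its direction. Most members had under 10 inferred reads in a library outside shPALI1, which limits what could be seen to fall. Apart from the cases given by construction, the cause was not tested. Replicate numbers did not pair the libraries: deviations of same-numbered libraries correlated at -0.27 to 0.13, over 0.1 in 3 of 21 pairs. With the replicate block, 1 member (KHDC1, adjusted p = 0.0401) was called higher in shG9a, in place of 0.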
